A study of Mus musculus with 11 samples.

Results

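10 long noncoding RNAs that are abundant in brain were followed in cultured mouse hippocampal neurons after a short period of low oxygen: Meg3, Rian, Mirg, Malat1, Neat1, Miat, Peg13, Kcnq1ot1, Sox2ot and Pantr1. They were chosen by name, as the rows whose Ensembl ID carries one of these 10 symbols, out of 48709 gene IDs in the count tables. All 10 passed the filter on low counts and were among the 16235 genes tested. Hippocampal cells were grown in culture for 10 days at 20% oxygen. The hypoxia group (5 libraries) then spent 4 h at 1% oxygen, and the control group (6 libraries) came from the same isolation and remained at 20%. No genetic change is given for either group. Polyadenylated RNA was sequenced from single ends of 50 bp. Whether the libraries within a group were separate cultures is not given, so p-values measure only their spread, which may be technical.

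Long noncoding RNAs are transcribed and mostly spliced like mRNAs but are not known to encode a long protein, and many stay in the nucleus. Meg3, Rian and Mirg are read from the maternal copy of the imprinted Dlk1-Dio3 domain in one direction, and Rian and Mirg host many small nucleolar RNAs and microRNAs in brain. Malat1 gathers in nuclear speckles, Neat1 is the scaffold of paraspeckles, and Miat forms its own nuclear domains in neurons. Peg13 and Kcnq1ot1 are read from the paternal copy of their imprinted domains, while Sox2ot and Pantr1 lie around and beside genes for transcription factors of neural cells.

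Mature sequences are shown for the microRNAs whose hairpins lie wholly within exons of Mirg, since Mirg had the largest fall among the 10. Of 14 hairpins within the span of Mirg, 4 met this condition (Mir134, Mir485, Mir377 and Mir410). The 7 mature forms listed for them in the RefSeq table (GRCm38.p6) all lie on the plus strand of chromosome 12, from chr12:109734145-109734166 (miR-134-5p) to chr12:109743764-109743784 (miR-410-3p), and carry 7 different seeds. They are written 5′ to 3′, with the seed (bases 2 to 8) in capitals.

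mmu-miR-134-5p: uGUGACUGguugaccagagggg
mmu-miR-134-3p: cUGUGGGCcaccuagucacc
mmu-miR-485-3p: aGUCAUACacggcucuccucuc
mmu-miR-377-5p: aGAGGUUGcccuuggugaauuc
mmu-miR-377-3p: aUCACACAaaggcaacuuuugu
mmu-miR-410-5p: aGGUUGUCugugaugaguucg
mmu-miR-410-3p: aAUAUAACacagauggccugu

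RefSeq promoter windows, which run from 250 bases before the start site to 50 after it, were listed for 6 of the 10 (Meg3, Rian, Mirg, Malat1, Miat and Kcnq1ot1). They were searched on both strands for the core letters of hypoxia response elements, ACGTG and GCGTG, and for the full cyclic AMP response element, TGACGTCA. Neither hypoxia core was found in the windows of Meg3, Rian or Mirg, while Malat1 and Kcnq1ot1 held ACGTG and Miat held GCGTG. The Mirg window (chr12:109734731-109735030) lies inside the annotated Mirg gene, which starts at position 109729764. The Miat window (chr5:112228899-112229198) likewise lies inside the annotated Miat gene, which starts at position 112229395 on the minus strand. The annotated starts of Mirg and Miat were thus not searched, and the GCGTG of Miat lies within its gene. Of 32851 promoter windows counted, with 1 chromosome left out, 19.6% held ACGTG, 32.4% held GCGTG and 43.8% held at least 1 of them. Among the 6 genes TGACGTCA was found at Meg3 alone, in the upstream one of its windows, and it occurred in 1.79% of the windows counted. The printed matches do not overlap each other. A match is a description of letters and not a bound site. The windows of Meg3 (chr12:109540746-109541045, plus strand) and Malat1 (chr19:5802623-5802922, minus strand) are printed 5′ to 3′ on the gene's own strand, with matches in capitals, as the most abundant member of each of the Dlk1-Dio3 and nuclear body groups.

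Meg3 promoter window: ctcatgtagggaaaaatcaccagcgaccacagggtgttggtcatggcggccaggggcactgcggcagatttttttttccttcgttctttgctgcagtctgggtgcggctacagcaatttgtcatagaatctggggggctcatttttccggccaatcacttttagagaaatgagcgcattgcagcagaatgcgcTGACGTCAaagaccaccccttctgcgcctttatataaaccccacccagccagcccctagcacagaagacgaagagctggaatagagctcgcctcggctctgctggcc
Malat1 promoter window: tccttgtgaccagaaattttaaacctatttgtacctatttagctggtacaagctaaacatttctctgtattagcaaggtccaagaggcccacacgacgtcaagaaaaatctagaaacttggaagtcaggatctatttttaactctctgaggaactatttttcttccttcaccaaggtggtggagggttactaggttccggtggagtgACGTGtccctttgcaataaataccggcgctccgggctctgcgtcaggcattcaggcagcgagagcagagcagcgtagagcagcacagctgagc

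Total counts per library ran from 2.27e+07 to 3.19e+07 in hypoxia and from 1.66e+07 to 3.14e+07 in control. The exposure itself was visible in genes switched on by hypoxia-inducible factors, of which 9 of 10 rose and 0 fell, with a median log2 fold change of 1.29. Slc2a1, a glucose transporter, averaged 66.7 ± 3.67 CPM in hypoxia and 22.6 ± 5.04 CPM in control. Kdm3a, a histone demethylase, averaged 191 ± 18.4 CPM in hypoxia and 76.3 ± 11.2 CPM in control, and P4ha1, a collagen hydroxylase subunit, 174 ± 6.44 CPM in hypoxia and 86.2 ± 11.9 CPM in control. CPM are counts per 1e+06 counts after scaling of library sizes, and errors are SD over 5 hypoxia and 6 control libraries unless named otherwise. Library hypoxia 5 stood apart for several of the 10 RNAs: together they took 0.274% of its counts, against 0.417% to 0.469% in the other 4 hypoxia libraries and 0.411% to 0.587% in control. Values without hypoxia 5 stand beside the results that it moves most. Counts on mitochondrially encoded genes took 3.06% ± 0.175 of the total in hypoxia and 3.61% ± 0.216 in control (exact 2-sided permutation p = 0.00649).

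After 4 h at 1% oxygen 4 of the 10 long noncoding RNAs had fallen and 0 had risen at an adjusted p under 0.05 (edgeR quasi-likelihood test, Benjamini-Hochberg adjustment over all tested genes). The 4 were Mirg, Meg3, Neat1 and Rian. In the background of all tested genes 12.8% fell and 10.1% rose. The median log2 fold change was -0.17 for the 10 and -0.02 for all tested genes, and all 10 estimates were below 0, with 95% intervals that included 0 for 4 of them (Malat1, Peg13, Kcnq1ot1 and Pantr1). Among genes with a GENCODE long noncoding type and at least 5 CPM, a class defined after values were seen and one that holds the 10, 29.3% of 184 fell and 8.15% rose. Protein-coding genes at the same level fell in 13.5% and rose in 13.7% of cases. None of the 10 was higher at an unadjusted p under 0.05 either. Without hypoxia 5, 5 of the 10 fell, since Miat joined the 4. Over the 11 fits that each left out 1 library, 3 to 5 of the 10 fell. Meg3, at an adjusted p of 0.0498, lost its call in most of these fits and with DESeq2.

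**Figure D1:**
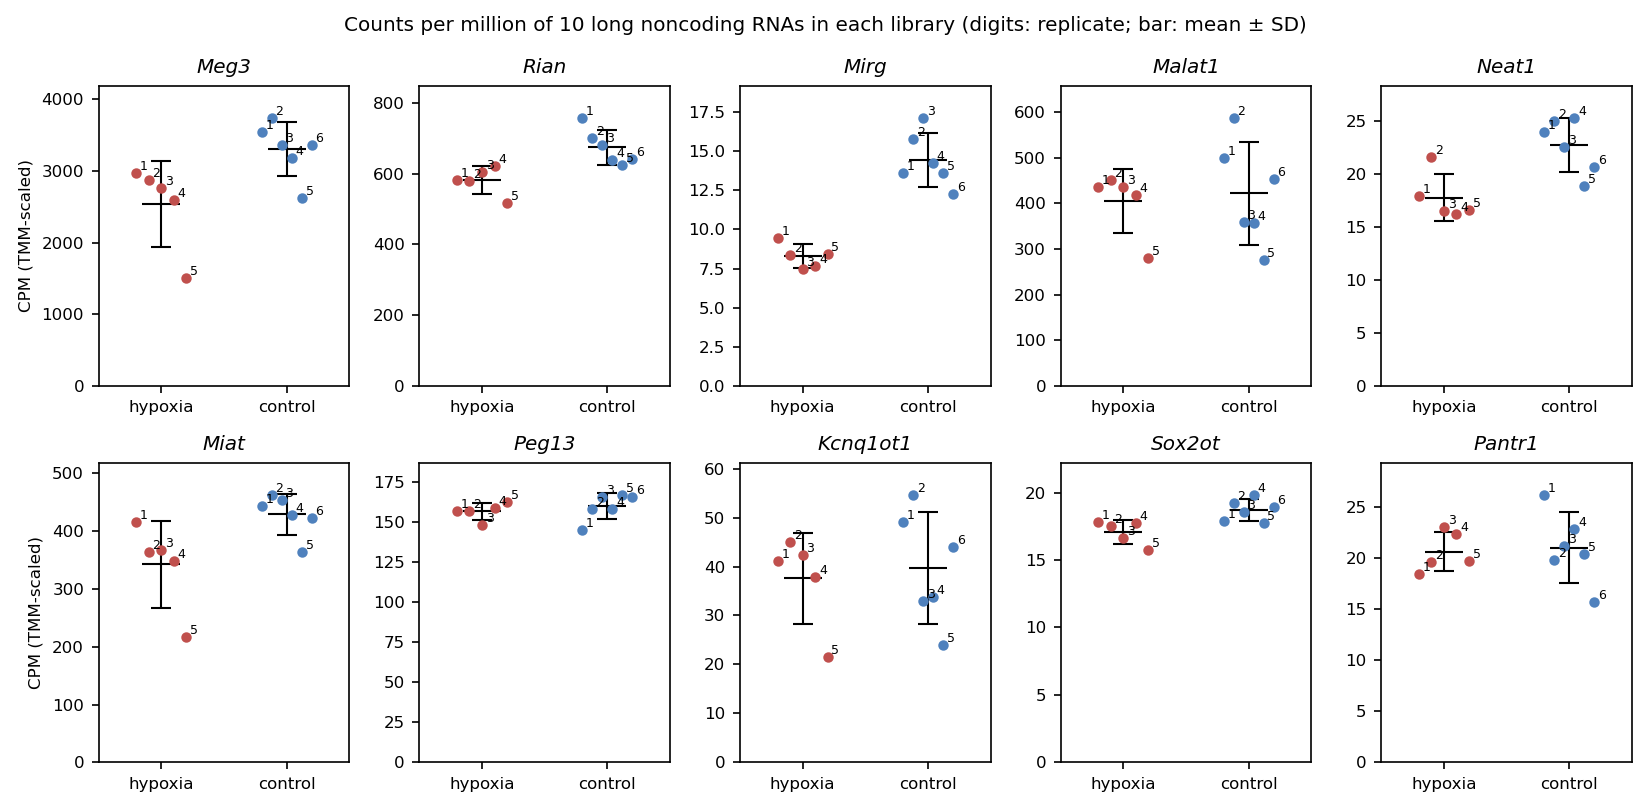
Level in CPM (y axis, linear from 0) of each of the 10 RNAs in every library, hypoxia at left and control at right. Digits are replicate numbers and bars are mean ± SD. Mirg and Rian show no overlap between groups, and hypoxia 5 lies far below the other 4 hypoxia libraries for Meg3, Malat1 and Miat.

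**Figure D2:**
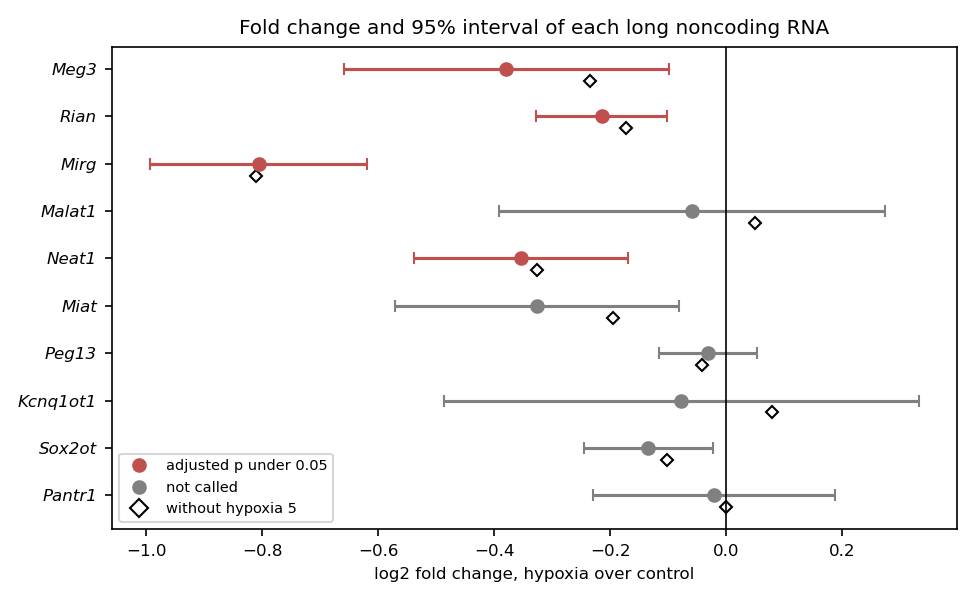
Log2 fold change of hypoxia over control (x axis) with its 95% interval for each RNA, and the estimate without hypoxia 5 (open diamonds). Mirg lies farthest below 0, at -0.81. The estimates of Malat1 and Kcnq1ot1 move above 0 without hypoxia 5.

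Per kilobase of exon (RPKM, with exon lengths from GENCODE M21, which may differ from the authors' annotation) the 10 RNAs covered a wide range of levels. Meg3 was highest, at 140.5 ± 33.1 RPKM in hypoxia and 183 ± 21.0 RPKM in control. Malat1 followed with 58.0 ± 10.0 RPKM in hypoxia and 60.4 ± 16.1 RPKM in control. Miat had 36.8 ± 8.03 RPKM in hypoxia and 46.1 ± 3.77 RPKM in control. Rian and Peg13 came next and did not differ from each other beyond their spread in hypoxia. Rian had 31.9 ± 2.16 RPKM in hypoxia and 37.0 ± 2.71 RPKM in control, and Peg13 had 33.1 ± 1.11 RPKM in hypoxia and 33.8 ± 1.74 RPKM in control. The other 5 were far lower. Pantr1 had 4.63 RPKM in hypoxia and 4.72 RPKM in control. Mirg had 1.14 RPKM in hypoxia and 1.98 RPKM in control, and Sox2ot 1.47 RPKM in hypoxia and 1.61 RPKM in control, so that their order was reversed between the groups. Lowest were Neat1, with 0.853 RPKM in hypoxia and 1.09 RPKM in control, and Kcnq1ot1, with 0.404 RPKM in hypoxia and 0.427 RPKM in control. The label of an abundant RNA thus held per length for Meg3, Malat1, Miat, Rian and Peg13. It held less for Pantr1, Mirg, Sox2ot, Neat1 and Kcnq1ot1. The annotated exons of Neat1 and Kcnq1ot1 are 20771 and 93092 bases long, but those of Mirg only 7292. Mirg also had the lowest CPM of the 10, at 8.28 in hypoxia and 14.4 in control.

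Mirg, the host transcript of the microRNAs printed above, showed the largest fall. It had 9.43, 8.40, 7.49, 7.64 and 8.43 CPM in hypoxia 1 to 5, against a lowest, median and highest value of 12.3, 13.9 and 17.1 CPM in control. Every hypoxia library was below every control library, a pattern seen in 7.26% of all tested genes. Its log2 fold change was -0.81 (SE 0.09, adjusted p = 9.14e-06), and its fitted level fell by 42.8%. The counts behind it were 186 to 267 per hypoxia library and 228 to 532 per control library. Without hypoxia 5 the log2 fold change was also -0.81. Mirg (ENSMUSG00000097391) lies at chr12:109729764-109749460 on the plus strand (mm10; positions of all 10 RNAs are those of GENCODE M21), with a merged exon length of 7292 bases.

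Rian, the host of small nucleolar RNAs (C/D box) upstream of Mirg, fell by a smaller amount. It had 581, 579, 605, 622 and 518 CPM in hypoxia 1 to 5, against 625.5, 661 and 757 CPM as lowest, median and highest in control. Here too the groups did not overlap, but hypoxia 4 and control 5 nearly touched. Hypoxia over control gave a log2 fold change of -0.21 (SE 0.05, adjusted p = 0.0083). No entry with the ID and symbol of Rian was found in the authors' deposited tables of higher and lower genes. Those tables list genes at an adjusted p under 0.05. Rian (ENSMUSG00000097451) lies at chr12:109603940-109661716 on the plus strand. Mirg and Rian were thus 2 of 10 whose libraries were fully separated.

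Meg3, the maternally expressed RNA at the start of the cluster and the most abundant of the 10, was at the edge of the threshold. It had 2973, 2878, 2757, 2598 and 1499.8 CPM in hypoxia 1 to 5, against 2629, 3364 and 3738 CPM as lowest, median and highest in control. Hypoxia 5 lay far below all other libraries, and hypoxia 1 to 3 lay above control 5 and below the other controls. On the log2 scale the fold change was -0.38 (SE 0.13, adjusted p = 0.0498). Without hypoxia 5 it was -0.24 with a lower adjusted p of 0.0318. The call was lost on leaving out any 1 of control 1, 2, 3, 4 and 6 and hypoxia 2, 3 and 4, with adjusted p between 0.0587 and 0.0942 and log2 fold changes between -0.42 and -0.34. Over all 20 alternatives the adjusted p ran from 0.00285 to 0.145. In the authors' deposited table of genes lower in hypoxia, Meg3 was listed with a log2 fold change of -0.41 and an adjusted p of 0.0293. Meg3 (ENSMUSG00000021268) lies at chr12:109541001-109571726 on the plus strand.

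Ratios between neighbours within a library do not depend on library scaling, so 4 were computed and tested with an exact 2-sided permutation test over all 462 assignments of 5 hypoxia labels to the 11 libraries. Per 1000 counts of Rian, there were 16.2, 14.5, 12.4, 12.3 and 16.3 counts of Mirg in hypoxia 1 to 5, and 18.01, 22.0 and 25.2 as lowest, median and highest in control. The log2 difference was -0.59 (hypoxia minus control, exact p = 0.00216, the smallest this design allows, adjusted over the 4 ratios 0.00866). Relative to Rian, its neighbour on the same strand, Mirg was lower in each of the 5 hypoxia libraries than in any control library.

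The other ratios did not pass the adjusted threshold. Mirg per 1000 counts of Meg3 was 3.17, 2.92, 2.72, 2.94 and 5.62 in hypoxia 1 to 5, and 3.65, 4.35 and 5.16 as lowest, median and highest in control (log2 difference -0.39, exact p = 0.0887, adjusted 0.141). Hypoxia 1 to 4 were below all control libraries, and hypoxia 5, the library with the lowest Meg3 level, was above them all. Without hypoxia 5 the log2 difference was -0.58 (exact p = 0.00476, not adjusted). Rian per 1000 counts of Meg3 had medians of 219 in hypoxia and 201 in control, with a log2 difference of 0.20 (exact p = 0.199, adjusted 0.199). Without hypoxia 5 that difference was 0.058 (exact p = 0.495, not adjusted).

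**Figure D3:**
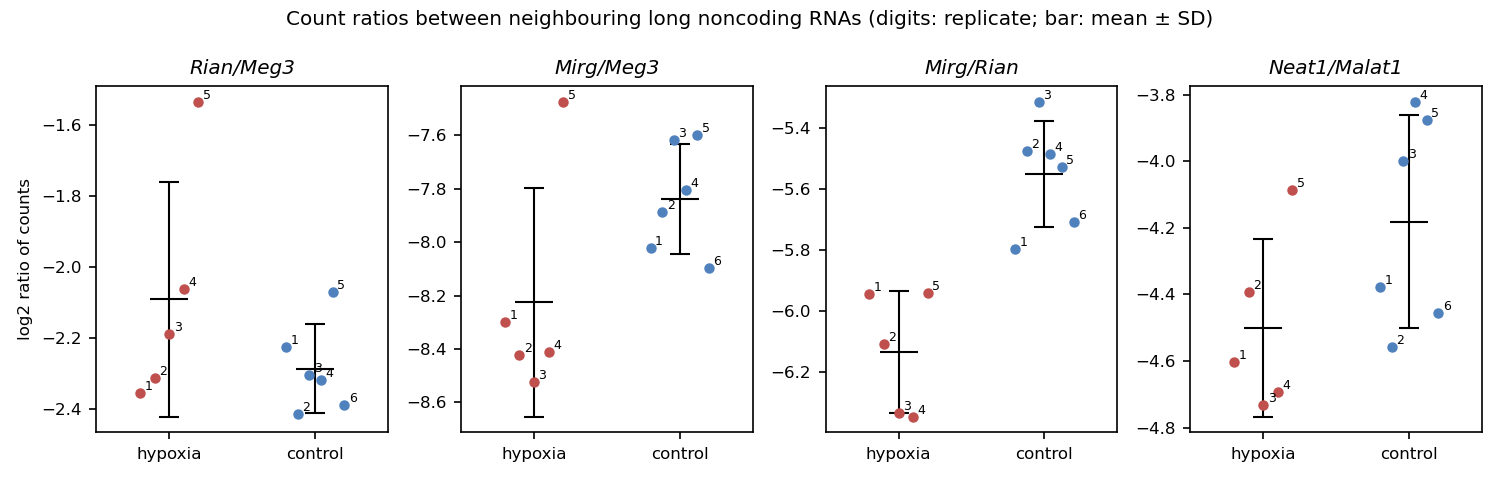
Log2 ratio of counts (y axis) between pairs of the 10 RNAs in every library, hypoxia at left and control at right, with replicate numbers and mean ± SD. The Mirg to Rian ratio separates the groups, while hypoxia 5 departs from the other hypoxia libraries in the ratios to Meg3.

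Between Dlk1 and Mirg, 11 rows of the count tables were tested. The 3 long RNAs were the ones that passed the threshold. Rtl1, a retrotransposon-derived coding gene read from the paternal copy on the opposite strand, had 7.02 ± 1.76 CPM in hypoxia and 6.34 ± 1.01 CPM in control (log2 fold change 0.14, adjusted p = 0.57). Its log2 fold change was 0.0043 without hypoxia 1, 0.064 without control 5 and 0.27 without hypoxia 5, and it passed the test in none of these. The libraries do not mark strand, so reads from either strand over Rtl1 cannot be told apart. The counts of Rtl1 can thus not be assigned to the paternal copy. Dlk1, a Notch-related paternal gene, was near the detection limit at 0.438 CPM in hypoxia and 0.377 CPM in control. Gm26945, a noncoding row within an intron of Rian, had 7.85, 8.02, 8.74, 8.49 and 3.35 CPM in hypoxia 1 to 5, with 3.85 to 8.01 CPM in control. Its log2 fold change of 0.34 did not pass the test (adjusted p = 0.271), and hypoxia 5 was again the lowest hypoxia library. Gm37899, a row between Rian and Mirg with 0.534 CPM in hypoxia and 1.13 CPM in control, showed a difference of -1.05 on the log2 scale (adjusted p = 0.068).

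Of 6 coding genes listed for the Dlk1-Dio3 region, 5 were tested, and 0 rose and 0 fell by edgeR (median log2 fold change 0.13), with 1 higher at an unadjusted p under 0.05 and 1 higher by DESeq2. Ppp2r5c, a regulatory subunit of a phosphatase and the most abundant of them, had 199 ± 2.10 CPM in hypoxia and 189 ± 3.08 CPM in control (log2 fold change 0.07, adjusted p = 0.0874). Every hypoxia library, at 196 to 201 CPM, lay above every control library, at 187 to 193 CPM. Ppp2r5c was the gene that DESeq2 called higher (adjusted p = 0.00549), and edgeR called it without control 1 (adjusted p = 0.0244) and with at least 10 counts in every library (adjusted p = 0.0353). The small RNAs hosted in the cluster were not measured by polyadenylated libraries: the 15 microRNA rows inside Mirg held 126 counts over all 11 libraries, and the 13 small nucleolar RNA rows inside Rian held 693. The 4 hairpins in Mirg exons were listed at 0. Their bases are shared with Mirg, and how reads shared between genes were counted is not given. Their level can therefore not be read from that 0.

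**Figure D4:**
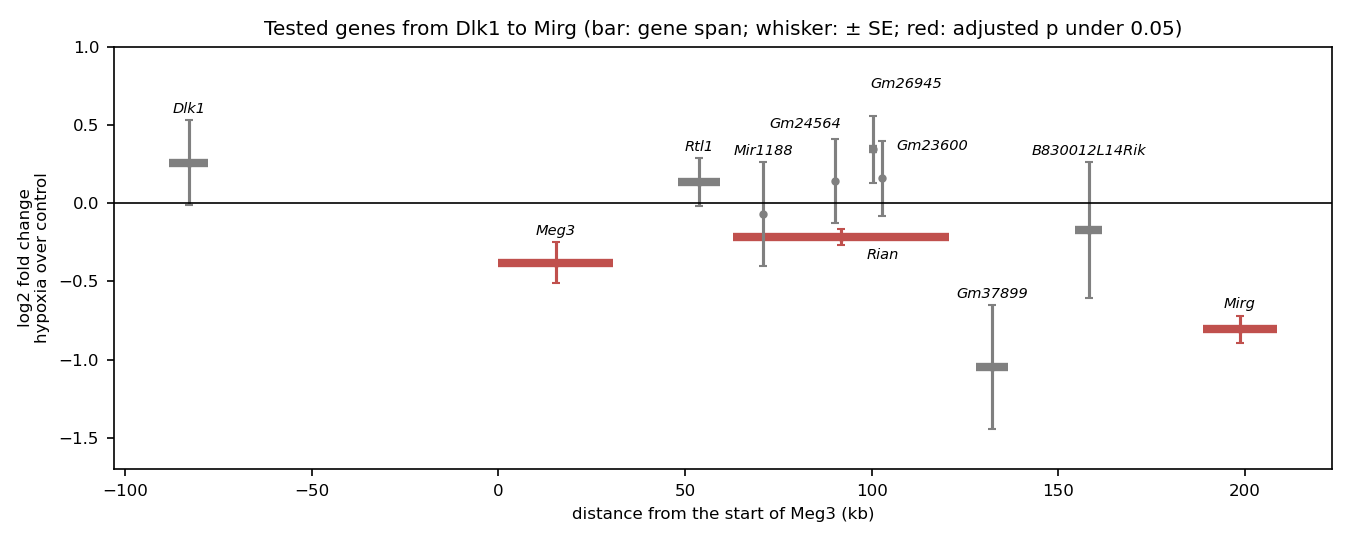
Log2 fold change of hypoxia over control (y axis) for the 11 tested rows from Dlk1 to Mirg, by distance from the start of Meg3 in kb (x axis). Thick bars are gene spans and whiskers ± SE, with adjusted p under 0.05 in red. Meg3 at -0.38, Rian at -0.21 and Mirg at -0.81 are below 0, and Rtl1 and Dlk1 are above it without passing the test.

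Neat1, the architectural RNA of paraspeckles, fell. It had 17.9, 21.5, 16.4, 16.2 and 16.6 CPM in hypoxia 1 to 5, against 18.8, 23.2 and 25.2 CPM as lowest, median and highest in control. Hypoxia 2 overlapped with control 5 and control 6, and the other 4 hypoxia libraries were below every control. Its log2 fold change was -0.35 (SE 0.09, adjusted p = 0.00779), and -0.33 without hypoxia 5. In the authors' deposited table it was listed at -0.35 (adjusted p = 0.00132). Neat1 (ENSMUSG00000092274) lies at chr19:5824708-5845478 on the minus strand. Short and long forms of Neat1 share their first part and are not told apart in gene counts. Malat1 and the long form of Neat1 are known to end in a triple helix and not in a poly(A) tail, and how fully the polyadenylated libraries held them was not tested.

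Malat1, its neighbour on chromosome 19, had 435, 452, 437, 419 and 281 CPM in hypoxia 1 to 5, against 276, 406 and 587 CPM as lowest, median and highest in control. The control libraries spanned the whole hypoxia range, and control 5 and hypoxia 5 were the lowest of their groups. The log2 fold change was -0.06 with a 95% interval from -0.39 to 0.27 (adjusted p = 0.834). It was 0.05 without hypoxia 5, and above 0 as well without control 1 (0.00465) or control 2 (0.06). Changes within that interval were not detectable for Malat1 at this spread. Malat1 (ENSMUSG00000092341) lies at chr19:5795690-5802672 on the minus strand. Per 1000 counts of Malat1 there were medians of 41.1 counts of Neat1 in hypoxia and 55.3 in control (log2 difference -0.32, exact p = 0.106, adjusted 0.141). Without hypoxia 5 the log2 difference was -0.42 (exact p = 0.0429, not adjusted).

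Among transcripts of paraspeckle proteins 10 of 19 fell and 0 rose, with a median log2 fold change of -0.15 (DESeq2 called 9 lower and 0 higher). Among all tested genes 12.8% fell and 10.1% rose, with a median of -0.02. The list was chosen with earlier results known and was not tested as a set. Cpsf6, an mRNA 3′-end processing factor, averaged 134 ± 14.6 CPM in hypoxia and 176 ± 8.40 CPM in control (log2 fold change -0.40, adjusted p = 0.000191). Rbmx, a nuclear RNA-binding protein, fell by 0.31 on the log2 scale (adjusted p = 5.7e-05). Tardbp, which encodes TDP-43, fell by 0.26 (adjusted p = 0.000189). Of the core pair chosen for mention after their values were seen, Sfpq fell by 0.18 (adjusted p = 0.00693), while Nono differed by 0.02 (adjusted p = 0.732).

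Among 13 nuclear speckle and splicing genes, which include partners of Malat1 and Miat, 4 fell and 1 rose. The shares over all tested genes were 12.8% lower and 10.1% higher. Srsf2 and Srsf5, splicing factors of the SR family, fell by 0.36 and 0.41 on the log2 scale (adjusted p = 6.57e-06 and 1.08e-05). Srrm2, a scaffold protein of speckles, averaged 580 ± 35.6 CPM in hypoxia and 494 ± 24.6 CPM in control (log2 fold change 0.23, adjusted p = 0.00142). Frmd8, near Malat1 and Neat1 on chromosome 19, differed by 0.14 on the log2 scale (adjusted p = 0.236), and by 0.062 without hypoxia 1.

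Miat, a nuclear RNA of neurons known to bind splicing factors, had 415, 364, 367, 348 and 216 CPM in hypoxia 1 to 5, against 364, 435 and 463 CPM as lowest, median and highest in control. Hypoxia 5 was far below the rest, and control 5 lay among hypoxia 1 to 4. A log2 fold change of -0.33 (SE 0.12) lay just outside the threshold, with an adjusted p of 0.0522. Without hypoxia 5 it was -0.20 (adjusted p = 0.0352), without hypoxia 1 it was -0.40 (adjusted p = 0.0252), and without control 5 it was -0.36 (adjusted p = 0.0391). In the authors' deposited table Miat was listed at -0.35 (adjusted p = 0.0402). Miat (ENSMUSG00000097767) lies at chr5:112213228-112229395 on the minus strand. Meg3 and Miat are thus the RNAs just inside and just outside the threshold, with nearly the same values.

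Kcnq1ot1, the paternal RNA that silences genes of the Kcnq1 domain in cis, had 41.2, 44.99, 42.3, 37.8 and 21.5 CPM in hypoxia 1 to 5, against 23.9, 38.8 and 54.7 CPM as lowest, median and highest in control. The groups overlapped, and hypoxia 5 and control 5 were again lowest. The log2 fold change was -0.08 with a 95% interval from -0.49 to 0.33 (adjusted p = 0.822). It was 0.08 without hypoxia 5 and 0.04 without control 2. Kcnq1ot1 (ENSMUSG00000101609) lies at chr7:143203458-143296549 on the minus strand, antisense to Kcnq1, and the libraries do not mark strand. Kcnq1, a potassium channel gene, was at 0.266 CPM in hypoxia and 0.372 CPM in control.

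In the Kcnq1 domain 11 of 14 listed coding genes were tested, and 3 rose and 1 fell (median log2 fold change 0.00). Over all tested genes 10.1% rose and 12.8% fell. Cars, a transfer RNA synthetase gene, had 88.0 ± 1.37 CPM in hypoxia and 71.7 ± 2.83 CPM in control (log2 fold change 0.29, adjusted p = 2.4e-05). Dhcr7, the last enzyme of cholesterol synthesis, had 265 ± 21.6 CPM in hypoxia and 220.4 ± 13.9 CPM in control (log2 fold change 0.26, adjusted p = 0.00195). Ascl2, a transcription factor known from placenta, had 0.622 CPM in hypoxia and 0.277 CPM in control (adjusted p = 0.022), a call lost without hypoxia 3 (log2 fold change 0.97, adjusted p = 0.0698) and with the replicate number as a block (adjusted p = 0.082). Cdkn1c, a cell cycle inhibitor silenced by Kcnq1ot1 on the paternal copy, had 0.43 CPM in hypoxia and 0.612 CPM in control (adjusted p = 0.157).

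Peg13, an imprinted RNA within an intron of Trappc9, varied little between libraries. It had 157, 157, 148, 159 and 163 CPM in hypoxia 1 to 5, against 145, 162 and 167 CPM as lowest, median and highest in control. All hypoxia libraries lay inside the control range. Its log2 fold change was -0.03 with a 95% interval from -0.11 to 0.05 (adjusted p = 0.642), so that a change of the size seen for Mirg, Neat1 or Rian lay outside it. Peg13 (ENSMUSG00000106847) lies at chr15:72805600-72810324 on the minus strand. Trappc9, a trafficking gene that holds Peg13 in an intron, differed by 0.11 on the log2 scale (adjusted p = 0.322) and by 0.066 without control 1, and Kcnk9, a potassium channel gene of the same domain, by -0.05 (adjusted p = 0.727). Of the 5 coding genes of that domain, 1 rose and 0 fell, beside 10.1% higher and 12.8% lower among all tested genes. It was Ptk2, the focal adhesion kinase gene, with 163 ± 9.35 CPM in hypoxia and 145 ± 6.58 CPM in control (log2 fold change 0.17, adjusted p = 0.0085).

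Sox2ot, whose span holds the gene Sox2, had 17.8, 17.5, 16.6, 17.7 and 15.7 CPM in hypoxia 1 to 5, against 17.8, 18.7 and 19.8 CPM as lowest, median and highest in control. The groups touched at the upper end of hypoxia and the lower end of control. With a log2 fold change of -0.13 (SE 0.05, adjusted p = 0.0795), Sox2ot did not pass the test. Sox2 itself, a transcription factor of neural progenitors and glia, fell to 16.99 ± 2.64 CPM in hypoxia, against 22.4 ± 1.64 CPM in control (log2 fold change -0.39, adjusted p = 0.00388). Sox2ot (ENSMUSG00000105265) lies at chr3:34104270-34682619 on the plus strand. The exons of Sox2 and Sox2ot do not overlap in GENCODE M21.

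Pantr1, which lies beside the transcription factor gene Pou3f3, had 18.5, 19.6, 23.0, 22.4 and 19.7 CPM in hypoxia 1 to 5, against 15.7, 20.8 and 26.2 CPM as lowest, median and highest in control. The control range enclosed the hypoxia range. The log2 fold change was -0.02 with a 95% interval from -0.23 to 0.19 (adjusted p = 0.914), and its sign changed on leaving out control 1, control 4, hypoxia 1 or hypoxia 2. Pantr1 (ENSMUSG00000060424) lies at chr1:42590782-42694842 on the minus strand. Pou3f3 fell to 46.6 ± 1.76 CPM in hypoxia, against 59.6 ± 1.40 CPM in control, with no overlap (log2 fold change -0.35, adjusted p = 6.06e-06). Sox2 and Pou3f3 were the 2 of 9 tested neighbours of the unimprinted RNAs that changed. Among all tested genes 12.8% fell and 10.1% rose.

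The 10 RNAs differed in how far libraries of 1 group lay apart. The SD of log2 CPM was 0.43 in hypoxia and 0.44 in control for Kcnq1ot1, 0.28 in hypoxia and 0.39 in control for Malat1, and 0.41 in hypoxia and 0.18 in control for Meg3. Peg13 had an SD of 0.05 in hypoxia and 0.08 in control. Over the 11060 genes at 5 CPM or more the median SD was 0.08 in hypoxia and 0.09 in control. Hypoxia 5 was lowest of its group for Meg3, Rian, Malat1, Miat, Kcnq1ot1 and Sox2ot, and control 5 was lowest of its group for these and for Neat1. In control the wide spread of Malat1 and Kcnq1ot1 ran over several libraries. In hypoxia it came mainly from hypoxia 5, at 281 CPM for Malat1 and 21.5 CPM for Kcnq1ot1. Hypoxia 1 to 4 had 419 to 452 CPM of Malat1 and 37.8 to 44.99 CPM of Kcnq1ot1.

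**Figure D5:**
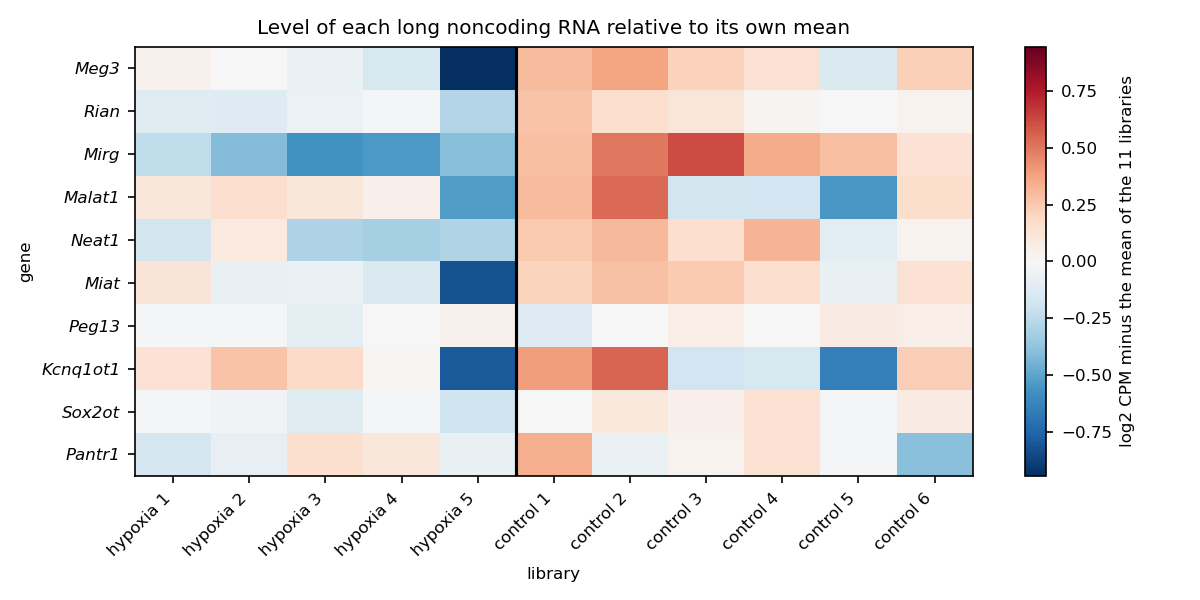
Log2 CPM of each RNA minus its own mean over the 11 libraries (colour), with hypoxia libraries at left of the line and control libraries at right. Mirg is below its mean in all 5 hypoxia libraries, and the columns hypoxia 5 and control 5 are low for Malat1 and Kcnq1ot1.

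Likeness of pattern was measured as the root mean square difference of centred log2 CPM over the 11 libraries. Malat1 and Kcnq1ot1 were each other's nearest among the 10 (0.10), as were Meg3 and Miat (0.07). Outside the 10, Gm37121 (0.07), an unclassified row, and Snhg11 (0.11), a small nucleolar RNA host gene, were nearest to Meg3. Srsf11 and Khdc4, both linked to splicing, were nearest to Rian (0.04 each). Map4k2 (0.12), a kinase gene, and ENSMUSG00000097769 (0.11) were nearest to Mirg, and Ltv1 and Tmem80 to Neat1 (0.09 each). These are descriptions over 11 libraries that share their depth and scaling.

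Further long noncoding RNAs from the list showed falls as well: of 28 listed, 19 were tested, 8 fell and 1 rose, with a median log2 fold change of -0.19. Mir22hg and Mir124a-1hg, host transcripts of microRNAs as Mirg is, fell by 0.80 and 0.78 on the log2 scale (adjusted p = 2.95e-06 and 4.31e-05). Mir17hg, the host of the miR-17 cluster, fell by 1.56 on the same scale, with 0.126 to 0.414 CPM in hypoxia and 0.54 to 1.26 CPM in control (adjusted p = 0.00151). All of these were named for the smallest p-values of the list. Mir9-3hg, another microRNA host by its name, fell by only 0.19 (adjusted p = 0.0156). Of 27 other imprinted genes tested, 4 fell and 2 rose, beside 12.8% lower and 10.1% higher among all tested genes. Snhg14, the long host RNA of the Prader-Willi and Angelman domain, averaged 89.1 ± 12.3 CPM in hypoxia and 149 ± 9.30 CPM in control (log2 fold change -0.74, adjusted p = 3.93e-06). Usp29 and Zrsr1, both paternally expressed, rose by 0.22 each (adjusted p = 0.000364 and 0.000832).

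The cultures held neurons and glia, so none of these levels can be assigned to neurons alone. In bulk RNA, fewer cells of a type and less RNA per cell cannot be told apart. Of 9 neuron markers 0 rose and 0 fell by edgeR or DESeq2, and 1 was lower at an unadjusted p under 0.05, with summed levels of 6621 to 7090 CPM in hypoxia and 6569 to 7141 CPM in control. Map2, the most abundant of them, averaged 2505 ± 168 CPM in hypoxia and 2481 ± 102 CPM in control. Astrocyte markers summed to 2995 to 3271 CPM in hypoxia and 2985 to 3265 CPM in control, and 1 of 7 fell (Aqp4). Markers of the oligodendrocyte lineage summed to 96.3 to 126 CPM in hypoxia and 114 to 160 CPM in control, and 3 of 8 fell (Mog, Olig1 and Olig2). Neural progenitor markers summed to 153 to 179 CPM in hypoxia and 154 to 188 CPM in control, and 3 of 7 fell (Hes5, Sox2 and Pax6). Endothelial and mural markers summed to 23.9 to 33.8 CPM in hypoxia and 17.9 to 22.1 CPM in control, and 1 of 5 rose (Pdgfrb). Of 6 microglia and 6 fibroblast markers tested, 0 changed by edgeR or DESeq2, and 1 microglia marker was higher at an unadjusted p under 0.05. Microglia markers summed to 16.02 to 18.9 CPM in hypoxia and 15.5 to 18.2 CPM in control, and fibroblast markers to 167 to 336 CPM in hypoxia and 179 to 247 CPM in control. The most abundant of these were Aif1 for microglia, with 8.04 ± 0.547 CPM in hypoxia and 8.77 ± 0.370 CPM in control, and Col3a1 for fibroblasts, with 91.2 ± 30.8 CPM in hypoxia and 83.9 ± 13.2 CPM in control. The microglia markers P2ry12 and Trem2 and the endothelial markers Cldn5 and Tek had too few counts to be tested. Beside these marker counts, 12.8% of all tested genes fell and 10.1% rose. The part of these cell types in the changes of the 10 RNAs was not tested.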

How the data were processed

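RNA counts were measured in 5 hypoxia and 6 control libraries, grouped by their titles. The authors deposited raw counts per Ensembl gene ID and library; 48349 of 48709 IDs matched a symbol. They come from build mm10, and STAR 2.5.2b, Subread 1.5.1 with featureCounts, FastQC 0.11.5 and DESeq2 are named, per the submitters' processing notes. Annotation release, strand setting and handling of multiply matching reads: not given in the sources used here. Libraries are not strand-marked per the labels' kit, so reads of overlapping genes on opposite strands (Kcnq1ot1 and Kcnq1, Miat and Gm26953) cannot be told apart. The authors' deposited tables of their own comparison give, per the file headers, a log2 fold change and an adjusted p-value; 22 per-library columns in them were not used.

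Counts were filtered with filterByExpr, scaled by TMM and tested with the quasi-likelihood F test of edgeR 4.0.16 (R 4.3.3, robust set to FALSE), 2-sided, over all 11 libraries without covariates. Benjamini-Hochberg adjustment ran over all 16235 genes and the threshold was 0.05. SE is the log2 fold change over the root of F. Tested genes held 99.9% of counts. The script was tested on simulated data. Ratios used exact permutation tests. Alternatives were DESeq2 1.42.0, limma-voom (3.58.1), other scaling and filters, a replicate block and leaving out each library. No 2 libraries of a group agreed within sampling noise (chi-square per degree of freedom 2.31 to 26.3). The largest values, 23.02 to 26.3, were those of control 2 with control 3 to 6. Exon lengths and gene types came from GENCODE M21 and sequences from RefSeq.

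The members and gene lists were chosen with earlier results of these data known. Named are all 10 members, the 3 called genes of each other list with the smallest p-value or else its most abundant gene, locus neighbours of a member, and the 2 genes most like each called member. Sfpq, Nono, Mir9-3hg and further genes behind small counts were chosen after their values were seen.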

Additional observations from a re-analysis of the deposited data

Results flagged for a closer look

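Hypoxia 5 was the library behind every value flagged as far from the rest of its group. Examined were 32 groups of values, and chance flags about 1 in 20. Meg3 had 1499.8 CPM in hypoxia 5, against 2598 to 2973 CPM in the other 4 hypoxia libraries. Malat1 had 281 CPM there, against 419 to 452 CPM. The log2 ratio of Mirg to Meg3 was -7.47 in hypoxia 5, against -8.52 to -8.30. The 10 long noncoding RNAs took 0.274% of its counts, against 0.417% to 0.469%, and all genes of long noncoding types took 0.891%, against 1.10% to 1.16%. These 5 values share 1 library and, in part, the same counts of Meg3.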

How the results depend on the processing

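Mirg, Rian and Neat1 fell under all 20 alternatives run. Meg3 fell under 7 of them and Miat under 7, so between 3 and 5 of the 10 RNAs fell and 0 rose. Over the libraries left out in turn, 1385 to 2081 of all genes rose and 1500 to 2042 fell. Ranges over the libraries left out were -0.15 to 0.059 (Malat1), -0.18 to 0.078 (Kcnq1ot1), -0.092 to 0.055 (Pantr1) and -0.079 to 0.0044 (Kcnk9), none of which passed the test in any alternative. Their signs turned as follows. Without control 1, Malat1 was at 0.00465 and Pantr1 at 0.055; without control 2, Malat1 was at 0.059 and Kcnq1ot1 at 0.04; without hypoxia 5, Malat1 was at 0.05 and Kcnq1ot1 at 0.078. Pantr1 was at 0.01 without control 4, 0.01 without hypoxia 1 and 0.00739 without hypoxia 2, and Kcnk9 at 0.0044 without control 6 and 0.00382 with the replicate block. Leave-one-out log2 differences ran from -0.58 to -0.31 for Mirg to Meg3 (unadjusted exact p 0.00476 to 0.181), from -0.63 to -0.53 for Mirg to Rian, from -0.42 to -0.25 for Neat1 to Malat1 (0.0429 to 0.2) and from 0.058 to 0.26 for Rian to Meg3 (0.0714 to 0.495).

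Correlations of same-numbered deviations ran from -0.37 to 0.37, and the best-matching control had the same number for hypoxia 2 and hypoxia 5 alone. Whether the replicate numbers pair the libraries cannot be told from these values. With the replicate block 1300 genes rose and 1637 fell, Meg3 had an adjusted p of 0.00285 and Miat of 0.00699. Over 5 pairs the log2 difference of Mirg to Rian was -0.62 (exact sign-flip p = 0.0625, the smallest 5 pairs allow). With the block Ascl2 lost its call (log2 1.13, adjusted p = 0.082). The share of higher genes among those called was 44.2%, and 51.2% with DESeq2 or with at least 10 counts in every library, and 38.4% with total count scaling (1443 higher, 2314 lower). The cause of these shifts was not tested. Depth limits Dlk1, Kcnq1, Cdkn1c and Ascl2, which had under 1 CPM in every library.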
